A study of Mus musculus with 12 samples.

Results

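H2A.Z promoter peaks after a cocaine history followed by saline were compared with those after saline alone in the nucleus accumbens of mice, the part of the ventral striatum that takes part in reward. The cocaine-saline condition (CS, labelled withdrawal) and the saline-saline condition (SS) comprised 3 samples each of the 12 in the series, profiled by chromatin immunoprecipitation and sequencing (ChIP-seq) with an antibody against H2A.Z. Neither group carries an allele or a transgene in the labels, and the labels used here give no strain, age, sex, dose or interval, nor whether animals were pooled. The labels call the library source transcriptomic, although the molecule is genomic DNA. Each condition is represented by 1 annotated peak list deposited by the authors, so no value has a spread between samples, no difference between conditions was tested, and intervals are 95% exact binomial (Clopper-Pearson) intervals that cover counting only.

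Members were chosen by rule on chromosomes 1 to 19 of the mm10 build. These were all 6238 CS peaks and all 24190 SS peaks, of 59069 peaks in the 4 lists of the series. Promoter genes are those with an assigned peak whose middle was no more than 1000 bp from the transcription start site (TSS), which gave 4311 genes in CS and 13281 genes in SS. An SS promoter gene was called held when the CS list also had a promoter peak of that gene name.

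In a minority of nucleosomes the variant H2A.Z takes the place of histone H2A. The SRCAP and TIP60-p400 complexes insert it into chromatin, and the chaperone ANP32E removes it. At the promoters of many genes it sits in the nucleosomes on either side of the start site, and the stretch between them is depleted of nucleosomes. In neurons its removal and exchange have been studied in connection with memory and activity-dependent transcription.

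Promoter sequences show how CS peaks sat at single start sites. Each run below is the RefSeq promoter window of assembly GRCm38.p6, from 250 bases before to 50 bases after the start site, printed 5' to 3' on the gene's strand, with the bases under a CS peak in capitals and all other bases in lower case. Whether the peak lists count from 0 or 1 is not stated, so the edge of a capital run may be off by 1 base. The first 4 genes were held, and the last pair, from the top of the SS range, had no CS peak. The windows lie at chr4:133574495-133574794 (Gpatch3, plus strand), chr1:88008502-88008801 (Usp40, minus), chr17:87974800-87975099 (Msh6, plus), chr3:66985717-66986016 (Rsrc1, plus), chr12:85339313-85339612 (Nek9, minus) and chr7:105744289-105744588 (Taf10, minus).
Gpatch3: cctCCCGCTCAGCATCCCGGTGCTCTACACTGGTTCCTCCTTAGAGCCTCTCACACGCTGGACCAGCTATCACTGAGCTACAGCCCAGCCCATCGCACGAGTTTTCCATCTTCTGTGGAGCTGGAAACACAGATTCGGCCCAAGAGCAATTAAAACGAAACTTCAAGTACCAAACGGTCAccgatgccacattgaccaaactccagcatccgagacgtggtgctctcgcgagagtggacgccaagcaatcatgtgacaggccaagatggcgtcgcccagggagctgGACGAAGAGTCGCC
Usp40: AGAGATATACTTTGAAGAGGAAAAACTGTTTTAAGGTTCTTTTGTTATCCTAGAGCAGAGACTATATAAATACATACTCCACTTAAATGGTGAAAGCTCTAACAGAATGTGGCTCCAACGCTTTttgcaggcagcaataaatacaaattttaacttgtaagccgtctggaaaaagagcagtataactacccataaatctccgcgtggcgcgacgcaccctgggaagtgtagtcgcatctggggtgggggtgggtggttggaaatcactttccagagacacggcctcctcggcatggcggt
Msh6: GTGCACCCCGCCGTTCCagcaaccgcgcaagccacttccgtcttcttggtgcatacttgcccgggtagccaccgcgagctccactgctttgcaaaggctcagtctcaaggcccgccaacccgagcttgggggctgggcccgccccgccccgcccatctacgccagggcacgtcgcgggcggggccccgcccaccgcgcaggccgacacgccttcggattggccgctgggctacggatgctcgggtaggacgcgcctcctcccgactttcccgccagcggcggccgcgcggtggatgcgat
Rsrc1: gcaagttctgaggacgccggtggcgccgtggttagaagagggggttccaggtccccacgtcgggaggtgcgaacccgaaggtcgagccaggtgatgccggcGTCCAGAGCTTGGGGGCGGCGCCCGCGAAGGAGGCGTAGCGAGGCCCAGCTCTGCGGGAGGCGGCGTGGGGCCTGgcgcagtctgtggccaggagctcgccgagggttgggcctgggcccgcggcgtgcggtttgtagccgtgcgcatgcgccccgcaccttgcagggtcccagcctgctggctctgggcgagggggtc
Nek9: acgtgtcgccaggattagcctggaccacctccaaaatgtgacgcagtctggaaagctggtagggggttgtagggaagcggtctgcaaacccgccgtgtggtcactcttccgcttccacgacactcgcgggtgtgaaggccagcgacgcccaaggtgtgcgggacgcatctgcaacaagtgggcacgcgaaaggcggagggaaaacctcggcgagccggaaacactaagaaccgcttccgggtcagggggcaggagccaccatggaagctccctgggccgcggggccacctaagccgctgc
Taf10: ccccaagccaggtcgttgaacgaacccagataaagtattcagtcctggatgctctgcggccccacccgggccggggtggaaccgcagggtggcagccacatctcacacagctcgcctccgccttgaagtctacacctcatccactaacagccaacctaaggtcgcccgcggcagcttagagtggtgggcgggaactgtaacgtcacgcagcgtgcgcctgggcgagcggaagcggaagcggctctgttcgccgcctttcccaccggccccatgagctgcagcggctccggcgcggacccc

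In Gpatch3, 191 of the 300 bases lay under CS peaks, in 1 run upstream of the start site and 1 after it, with an uncovered stretch between them that includes the start site. In Usp40, a deubiquitinase gene, 124 bases were covered, all at the upstream end of the window. In Msh6, which encodes a mismatch recognition protein, 17 bases were covered at the upstream end. In Rsrc1, which encodes a splicing-related protein, 75 bases were covered in the middle of the window. The Nek9 and Taf10 windows lay wholly inside strong SS peaks and held no CS base. A window without capitals does not mark a gene as not held. Among held genes, the windows of Glce, Cgn, Zmpste24, Hnrnpr, Chuk, Ext2 and Inpp5f held no CS base either, their CS peaks lying outside the window. Gpatch3, Usp40 and Msh6 were chosen for having the most CS peaks in a wide SS peak.

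The lists differed in size and make-up. CS peaks covered 0.8 Mb with a median width of 109 bp, a shortest peak of 69 bp and a highest q-value of 0.051, against 19.4 Mb, 737 bp, 321 bp and 0.000544 in SS. The 5 most frequent fold enrichment values took up 32.6% of CS peaks, against 6.09% of SS peaks. Sequencing depth and peak-calling settings were not analysed here, and how far they set the shorter list cannot be told apart from the condition. The tissue label was checked on promoter peaks of striatal markers. SS promoter peaks stood at 9 of 10 listed markers of D1 medium spiny neurons, 7 of 10 of D2 neurons and 13 of 16 shared by both. They also stood at 10 of 16 markers of striatal interneurons. Outside neurons they stood at 7 of 11 astrocyte, 5 of 11 oligodendrocyte and 4 of 7 oligodendrocyte precursor markers. Of microglial markers they stood at 1 of 11, and of endothelial markers at 5 of 10. SS promoter peaks were thus not confined to neuronal markers. CS promoter peaks stood at none of these neuronal, astrocyte, oligodendrocyte or precursor markers, 1 of 11 microglial markers and 2 of 10 endothelial markers. H2A.Z at a promoter is not a measure of expression, so these counts bear on the label only loosely.

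CS peaks lay almost wholly on SS peaks, at a minority of them. Of the SS promoter genes, 3908 (29.4%, interval 28.7 to 30.2%) were held in CS, and 20.4% of SS peaks (19.9 to 21%) were overlapped by a CS peak by at least 1 bp. In the other direction 93.5% of CS peaks (92.9 to 94.1%) lay on an SS peak, and 90.7% of CS promoter genes had an SS promoter peak. By region class, CS peaks overlapped 30.2% of SS peaks in proximal promoters, 20% of those the authors classed as Promoter1k and 11.4% of those classed as Promoter3k. They overlapped 7.04% of those in gene bodies and 8.59% of other intergenic ones. These shares by region were not matched for the strength or width of the SS peaks. In bulk tissue, H2A.Z at a promoter in fewer cells and less H2A.Z per cell cannot be told apart. With only peaks of q at most 1e-05 kept in both lists, the held share was 4.45% and the overlapped share of SS peaks 3.37%.

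The counts by gene name and by overlap were close. Of the 9373 genes not held, 9114 had an SS promoter peak free of any CS peak, and 259 had one overlapped by a CS peak that the authors assigned to another gene or a start site farther away. Conversely 257 held genes had a CS promoter peak off their strongest SS peak, 168 of them with the middles of both peaks within 2000 bp of each other.

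Few CS peaks lay outside SS peaks. There were 404, with a median width of 85 bp, and 155 of them were within 1000 bp of an SS peak. By name 403 CS promoter genes had no SS promoter peak, and 46 of these were also off every SS peak (27 of them protein-coding genes). The strongest was the small nucleolar RNA gene Snord37, with a CS fold enrichment of 9.71 and its middle at -763 bp from the start site. The next were Fkbp14 (5.08), which encodes a peptidyl-prolyl isomerase of the endoplasmic reticulum, Tpmt (4.98), which encodes thiopurine methyltransferase, Mettl9 (4.91), which encodes a protein methyltransferase, and the histone H2B gene Hist1h2bn (4.84). With the SS list cut to its 6238 strongest peaks, the number of CS promoter genes not in SS was 2604.

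The held share depended on the strength and the width of the SS peak together. The fold enrichment is the authors' ratio of each SS peak over background, and each gene was placed by its strongest SS promoter peak. By strength, CS held 8.12% of genes with an SS fold below 3.5, 25% at 3.5 to 5, 40.1% at 5 to 8, 28.1% at 8 to 11 and 31.1% at 11 and over. By width, CS held 10.3% of genes with SS peaks below 600 bp, 18% at 600 to 800 bp, 26.3% at 800 to 1000 bp and 39.6% at 1000 bp and over. Among the widest peaks the share was 46.1% (44.2 to 48%) of 2677 genes at fold 5 to 8 and 33% (31 to 35.1%) of 2090 genes at fold 8 to 11, a difference of 13.1 percentage points. The drop from fold 5 to 8 to fold 8 to 11 stood in each of the 4 width classes, and the narrowest class had 37 genes at fold 8 to 11. With the SS list cut to its 6238 strongest peaks the difference among the widest peaks was 3.86 points. This cut kept 1112 of the 2677 genes at fold 5 to 8 and all 2090 at fold 8 to 11, so the genes compared were not the same. At q at most 1e-05, where 4.45% of all SS promoter genes were held, the difference was 4.24 points.

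**Figure D1:**
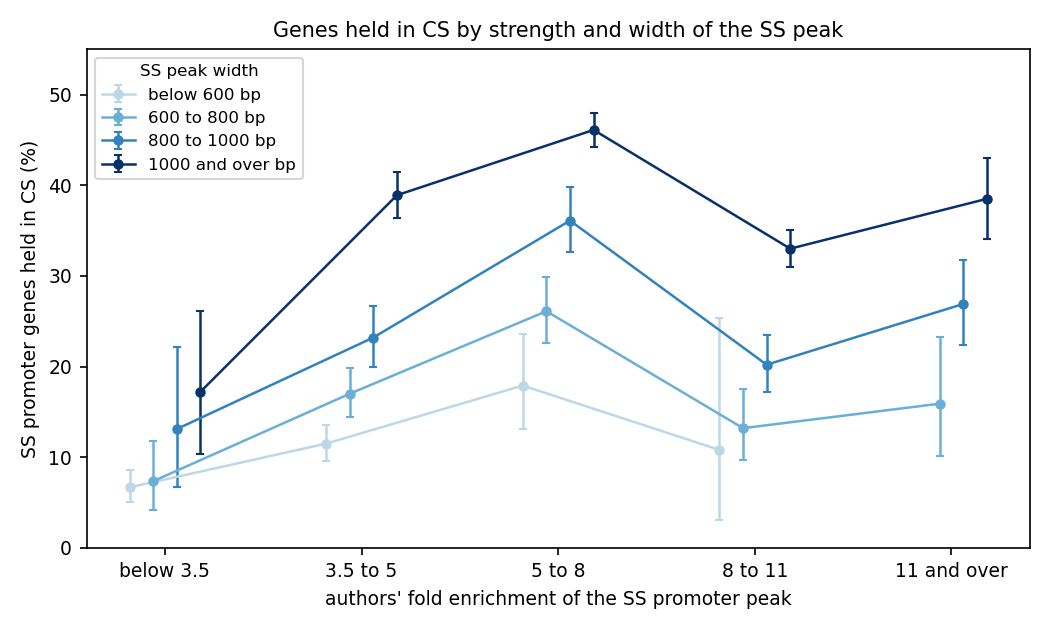
Share of SS promoter genes with a CS promoter peak (y axis, percent) by the authors' fold enrichment of the SS peak (x axis) and its width (line colour), with 95% exact binomial intervals and bins of at least 20 genes. At every strength the widest SS peaks had the highest share, 46.1% at fold 5 to 8 and 33% at fold 8 to 11 for peaks of 1000 bp and over.

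Strong SS peaks with and without a CS peak stood side by side in each class. At fold 11 and over the strongest held genes were Ext2, which encodes a heparan sulphate polymerase, with an SS fold of 15.3, the DNA damage checkpoint gene Topbp1 (14.5) and the phosphoinositide phosphatase gene Inpp5f (14.3). The strongest without a CS peak were the kinase gene Nek9 (15.8), the small GTPase gene Rab24 (15) and the TFIID subunit gene Taf10 (14.9). Just under a fold of 11, CS held Chuk, which encodes IKK-alpha, in an SS peak 1243 bp wide, and did not hold Ikbkb, which encodes its partner kinase IKK-beta, in an SS peak 922 bp wide. The cardiac and neuronal calcium release channel gene Ryr2 and the acetyltransferase scaffold gene Kansl1 were also held there, while the septin gene Sept8 and the Wnt-responsive factor gene Tcf7 were not. Just under a fold of 8, the RNA-binding protein gene Hnrnpr was held and the cold-inducible RNA-binding protein gene Cirbp was not, in SS peaks 1724 and 504 bp wide. Just under a fold of 5, Stat3 and the lamin-processing protease gene Zmpste24 were held, and the coatomer gene Copz1 and the methylation complex gene Virma were not.

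Since the share moved with strength and width, each gene list below is given with a matched share. This is the share of all SS promoter genes held after weighting the 20 bins of SS fold (5 classes) and width (4 classes) as in the list. Over all SS promoter genes the share was 29.4%. Of 49 gene lists, the 41 with at least 10 SS promoter genes are described by shares, 17 of them under their matched share and 24 over it, and the shorter ones by counts alone. A list's distance from its matched share is a description with no test. For shared medium spiny neuron markers, voltage-gated channels and postsynaptic scaffolds the interval of the held share lay wholly below the matched share. It also did for axon guidance genes and developmental factors outside the Hox clusters. For the cilium, tRNA and rRNA processing, cell cycle and Zfp lists it lay wholly above. In every other of the 41 lists the interval included the matched share.

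Neuronal signalling and identity genes were held at a lower share than SS genes of the same peak strength and width. Of 344 such genes over 13 lists CS held 44 (12.8%, interval 9.45 to 16.8%), against a matched share of 26.4%. No CS promoter peak stood at any of the 13 shared medium spiny neuron markers with an SS promoter peak (upper limit 24.7%), and the matched share was 25%. Among them were Gnal, the striatal G protein alpha subunit gene (SS fold 11.2), the transcription factor gene Foxp1 (10.8) and the cyclase gene Adcy5 (7.63). The 10 striatal interneuron markers, led by Lhx8 (11.5) and Pvalb (7.84), had none either (upper limit 30.8%), against a matched share of 15.2%.

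Among receptor genes, CS held 2 of 22 glutamate receptor genes (interval 1.12 to 29.2%, matched 24.7%) and 2 of 18 GABA receptor and synthesis genes (interval 1.38 to 34.7%, matched 27.4%). Both intervals include the matched share. The held ones included the NMDA receptor subunit gene Grin2d, the AMPA receptor subunit gene Gria4 and the GABA transaminase gene Abat. Grin3b (SS fold 12.2), Grid1 (8.21) and Gabra4 (10.6) were among those not held. In Grin2d the CS peak, 113 bp wide, had its middle 612 bp downstream of the start site, and in Gria4 a CS peak of 109 bp lay 328 bp downstream.

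Channels, scaffolds and the release machinery were also below their matched shares. CS held 8 of 56 voltage-gated channel genes (14.3%, matched 27%), with the potassium channel gene Kcnd3 (SS fold 9.83) the strongest held, and Hcn2 (11) and Cacnb4 (10.3) among those not held. Of 33 postsynaptic scaffold and adhesion genes CS held Dlgap4 and Dlgap3 alone, which encode partners of PSD-95 (6.06%, matched 28.7%), and not Homer3 (11.4) or Lrfn4 (10.8). Presynaptic genes stood at 7 of 41 (17.1%, interval 7.15 to 32.1%, matched 25.8%). These included the active zone gene Rims2, the complexin gene Cplx1 and the synaptotagmin gene Syt9, and not Unc13b (11.9) or Syn2 (11.6). Axon guidance genes stood at 9 of 58 (15.5%, matched 28.9%), with Sema3c (11.8), Sema4f (11.2) and Slit3 (10.1) held. Cadherins and protocadherins stood at 6 of 27 (22.2%), close to their matched share of 24.1%.

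Dopamine and cAMP signalling genes were held at 6 of 38 (15.8%, interval 6.02 to 31.3%, matched 28.6%). Only 2 of the 38 had an SS promoter peak overlapped by a CS peak, so most of the 6 carried their CS promoter peak off the strongest SS one, Pde4d and Prkacb, a phosphodiesterase and a protein kinase A subunit gene, among them. The dopamine receptor genes Drd1 (SS fold 3.76) and Drd2 (10.9) and the striatal peptide genes Penk (7.65), Pdyn (3.48) and Tac1 (3.65) were not held. The Drd2 peak was 779 bp wide, with its middle at -85 bp from the start site.

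Of 21 immediate early genes CS held Fosb and Ier3 (9.52%, interval 1.17 to 30.4%, matched 25.1%). Fosb encodes the AP-1 subunit whose truncated form accumulates in striatum after repeated cocaine. Its SS peak had a fold of 4.2 and a width of 509 bp, and its CS peak, 96 bp wide with a CS fold of 4.95, had its middle at -120 bp from the start site, inside the middle part of the SS peak. Ier3 had a CS peak of 161 bp in an SS peak of 854 bp. Fos (2.93), Egr1 (6.58), Arc (3.53), Nr4a1 (5.62), Nr4a2 (10.5) and Ier5 (8.79) were not held, nor was the neurotrophin gene Bdnf (3.49).

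The gap to other genes was not the same at every strength. In SS peaks of at least 1000 bp, neuronal genes were held at 13 of 28 (46.4%, interval 27.5 to 66.1%) at fold 3.5 to 5, where all SS promoter genes stood at 38.9%. They were held at 8 of 42 (19%, 8.6 to 34.1%) at fold 5 to 8, against 46.1%, and at 7 of 61 (11.5%, 4.74 to 22.2%) at fold 8 to 11, against 33%. Neuronal genes are often long, and genes of 100 kb and over were themselves held at 25.3%, against a matched share of 30.8%. With the bins also divided by gene length, neuronal genes stood 11.7 points below the matched share, and 13.6 points without that division. The part of gene length in this gap was not tested.

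Glial and vascular markers were few. CS held none of 7 astrocyte, 5 oligodendrocyte and 4 precursor markers with an SS promoter peak. Their matched shares correspond to only 1.55, 1.04 and 0.832 held genes, in that order. Of 5 endothelial markers it held Esam and Kdr, and it held the 1 microglial marker with an SS promoter peak. Together 3 of these 22 markers were held (13.6%, interval 2.91 to 34.9%), and the interval includes the matched share of 23.3%.

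CS held 37 of 64 genes of the cilium and intraflagellar transport (57.8%, matched 31.7%). Strong members were the centrosomal gene Cep131 (SS fold 13.9), Cep126 (12.1) and the transport gene Ift88 (11.3), while Bbs4 (11.7), which encodes a ciliopathy protein, was not held. The cilium list was above its matched share in each of the 9 settings tried, by 1.55 to 30.1 points.

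Replication, repair and cell cycle genes together were held at 87 of 201 (43.3%, interval 36.3 to 50.4%), against a matched share of 31.7%. CS held 20 of 45 replication genes (matched 29.7%), among them the helicase gene Mcm9 (12.8) and the origin recognition gene Orc1 (8.08), and not the topoisomerase genes Top1 (11.5) and Top2b (10.7). It held 26 of 57 repair genes (interval 32.4 to 59.3%, matched 34.7%) and 42 of 100 cell cycle genes (interval 32.2 to 52.3%, matched 30.6%). Msh6 was held with 3 CS peaks in an SS peak of fold 10.7 and 1309 bp. Partners divided here too: the cohesin gene Rad21 (12.3) was held and the cohesin gene Smc3 (11.8) was not. With peaks of q at most 1e-05 alone, the replication list stood at -0.193 points and the cell cycle list at -1.72 points from the matched share, with 2 and 3 genes held. With the SS list cut to its 6238 strongest peaks the replication list stood at 45.1 points, with 12 of 16 genes held.

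Genes of RNA processing and translation were held at 149 of 393 (37.9%), against a matched share of 31.6%. CS held 37 of 81 genes of tRNA and rRNA modification and processing (matched 32%) and 15 of 31 aminoacyl-tRNA synthetase genes (36.5%). With the SS list cut in this way, the tRNA and rRNA list stood 0.146 points from its matched share, against 13.6 points with the whole list. Translation factors (16 of 51, 30.4%) and splicing genes (36 of 106, 31%) lay close to their matched shares. Of the exosome, which trims and degrades RNA, Exosc7 (13.6) and Exosc8 (9.38) were held and Exosc6 (12.3) was not. Messenger RNA export, capping and decay genes stood at 23 of 61 (33.6%), and cytosolic ribosomal protein genes at 22 of 63 (28.5%), where Rpl14 (12.6) was held and Rpsa (13.4) and Rpl32 (12.6) were not. RNA polymerase, general transcription factor and Mediator genes stood at 34 of 87 (34.4%).

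Mitochondrial genes were held at 65 of 161 (40.4%, interval 32.7 to 48.4%), against a matched share of 31.6%. These comprised 24 of 57 mitochondrial ribosomal protein genes, 26 of 66 respiratory chain genes and 15 of 38 genes of import, dynamics and the tricarboxylic acid cycle. The cytochrome gene Cyc1 (10.5) and the dehydrogenase gene Dld (12.4) were held, and the cytochrome oxidase gene Cox4i1 (10.3) and the mitofusin gene Mfn1 (10.5) were not. Protein turnover and traffic genes stood at 181 of 513 (35.3%, matched 31.6%). Within them were 18 of 38 proteasome genes (36.6%), 19 of 48 Rab GTPase genes (29.1%), 27 of 79 chaperone genes (28%), 40 of 105 autophagy, endosome and lysosome genes (33.3%), 36 of 104 genes of the endoplasmic reticulum, Golgi and vesicle coats (31.6%) and 41 of 139 ubiquitin genes (31.9%), the shares in parentheses being the matched ones. With a promoter window of 500 bp the Rab list was held at 13 of 48, -0.00662 points from its matched share, and by overlap of the SS peak at 16 of 48, 4.82 points from it.

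Zinc finger genes named Zfp, most of which encode DNA-binding proteins and many of the repressive KRAB class, were held at 143 of 305 (46.9%), against a matched share of 35.7%. Their held share moved with strength. In SS peaks of at least 1000 bp CS held 83 of 119 (69.7%) at fold 5 to 8, where all SS promoter genes stood at 46.1%, and 8 of 32 at fold 8 to 11, where they stood at 33%. Zfp638 (13.3) and Zfp422 (12) were held, and Zfp553 (13.1) and Zfp282 (13) were not.

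Among chromatin genes, those of H2A.Z and its exchange complexes were held at 12 of 28 (42.9%, interval 24.5 to 62.8%, matched 30.7%). Anp32e, the gene of the H2A.Z chaperone, had an SS peak of fold 10.9 and 1116 bp that held 2 CS peaks, with middles at -48 and 684 bp from the assigned start site. The exchange ATPase gene Srcap (7.72) was held by a CS peak of 70 bp at the upstream edge of an SS peak of 1530 bp, and the exchange ATPase genes Ep400 (14.4) and Ino80 (10.8) were not held. H2afz (3.06) and H2afv (10.3), which encode H2A.Z itself, had no CS peak. Chromatin-modifying enzymes stood at 31 of 91 (34.1%, matched 31.6%), with Hdac2 (11.5) and Ezh2 (10.9) held. Chromatin remodellers stood at 12 of 54 (22.2%, interval 12 to 35.6%, matched 31.1%), with Pbrm1 (13.7) and Smarcad1 (11.3) not held. The canonical histone cluster had 3 of 16 held (matched 11.1%).

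Developmental transcription factor and morphogen genes also lay below their matched share. CS held 14 of 152 genes of these families outside the Hox clusters (9.21%, interval 5.13 to 15%, matched 25.1%). It held Hoxa7 alone of 15 Hox genes (interval 0.169 to 31.9%, matched 25.2%). The held ones included Foxj2 (10.4) and Sox30 (10.4), and those not held Twist1 (11.8), Fgf2 (11.7) and Hoxd1 (10.6). The gap differed between strengths in SS peaks of at least 1000 bp, with Hox genes counted in. At fold 5 to 8, 2 of 24 developmental genes were held (8.33%, interval 1.03 to 27%), where all SS promoter genes stood at 46.1%. At fold 8 to 11, 8 of 24 were held (33.3%, interval 15.6 to 55.3%), level with the 33% of all SS promoter genes. MAP kinase cascade genes stood at 21 of 68 (matched 30.2%), solute carriers at 65 of 219 (30.6%) and small RNA genes at 13 of 59 (23.4%). None of 3 olfactory receptor genes with an SS promoter peak was held.

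**Figure D2:**
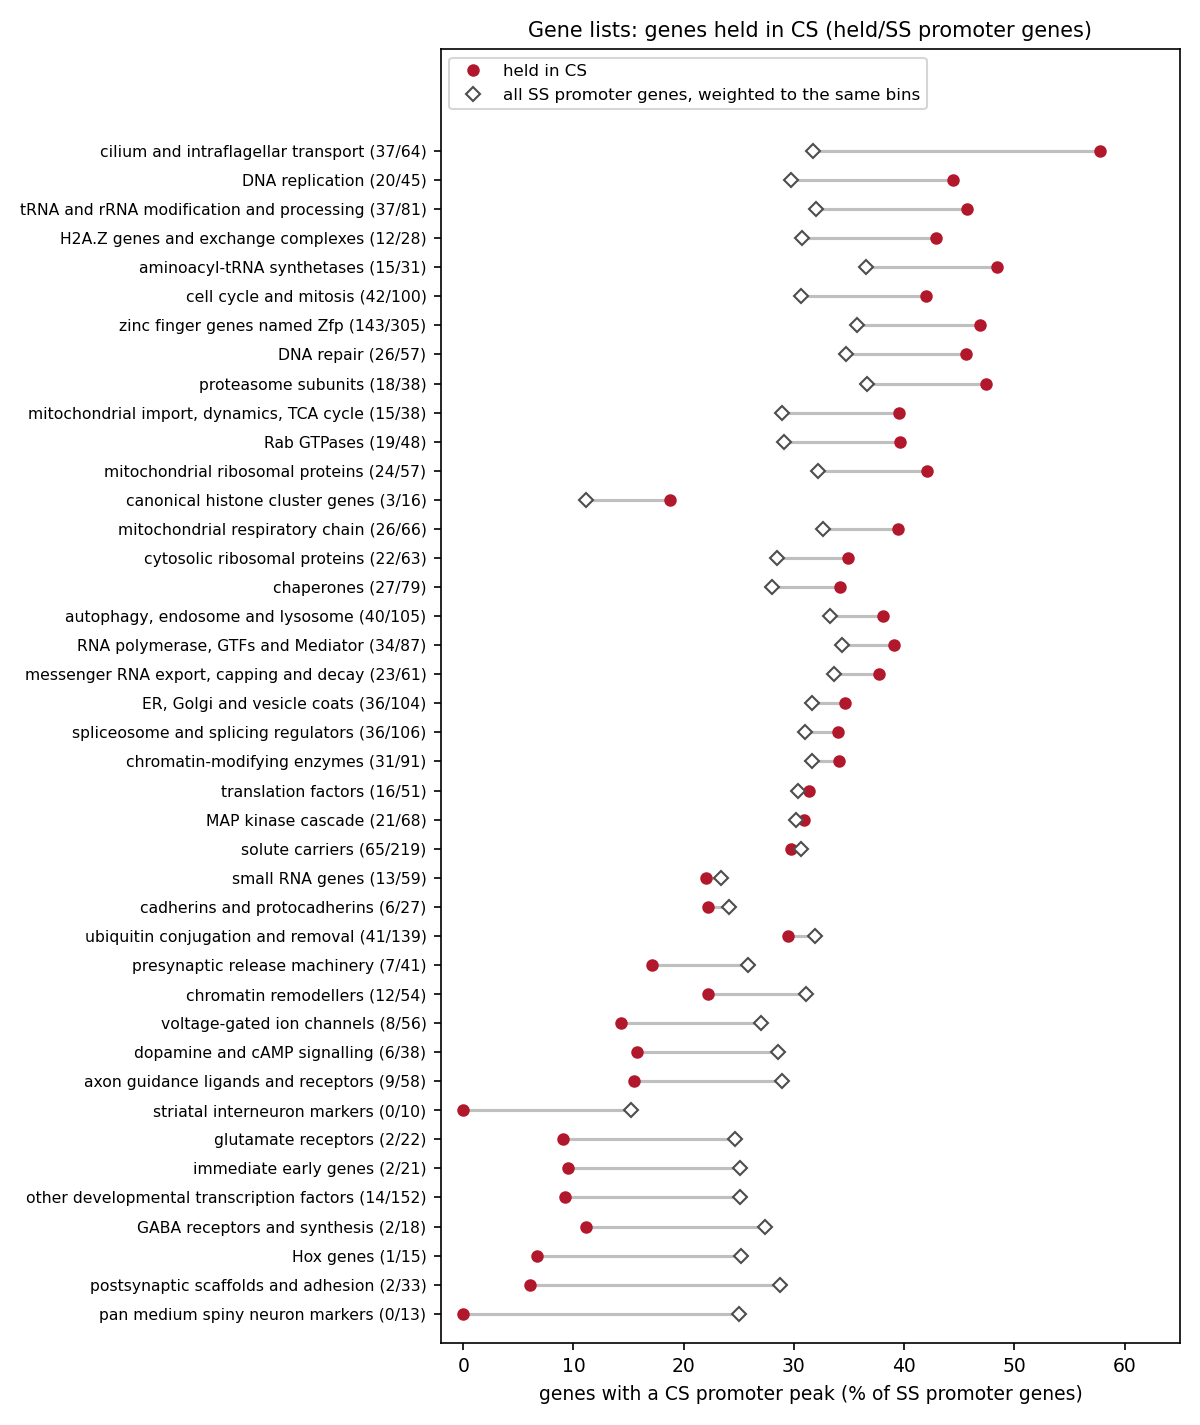
For each gene list with at least 10 SS promoter genes, the share with a CS promoter peak (red) and the share of all SS promoter genes held after weighting to the same bins of SS fold and width (open diamonds), in percent. Counts beside each name are genes held of SS promoter genes, from the cilium list (37 of 64) at the top to shared medium spiny neuron markers (0 of 13) at the bottom.

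Within SS promoter peaks, CS peaks lay mostly beside the start site, on both sides of it. There were 4947 CS peaks on SS promoter peaks, 96.8% of them wholly inside. Only 3.72% of CS middles fell in the 100 bp before the start site, against 28% of the middles of the SS peaks that held them. From -300 to -200 bp of the start site lay 12.2% of CS middles and 3.48% of SS middles, and from 200 to 300 bp after it 11.9% and 6.05%. CS middles were upstream of the start site in 52%, with a median position of -329 bp for those before it and 238 bp for those after it, upstream negative.

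**Figure D3:**
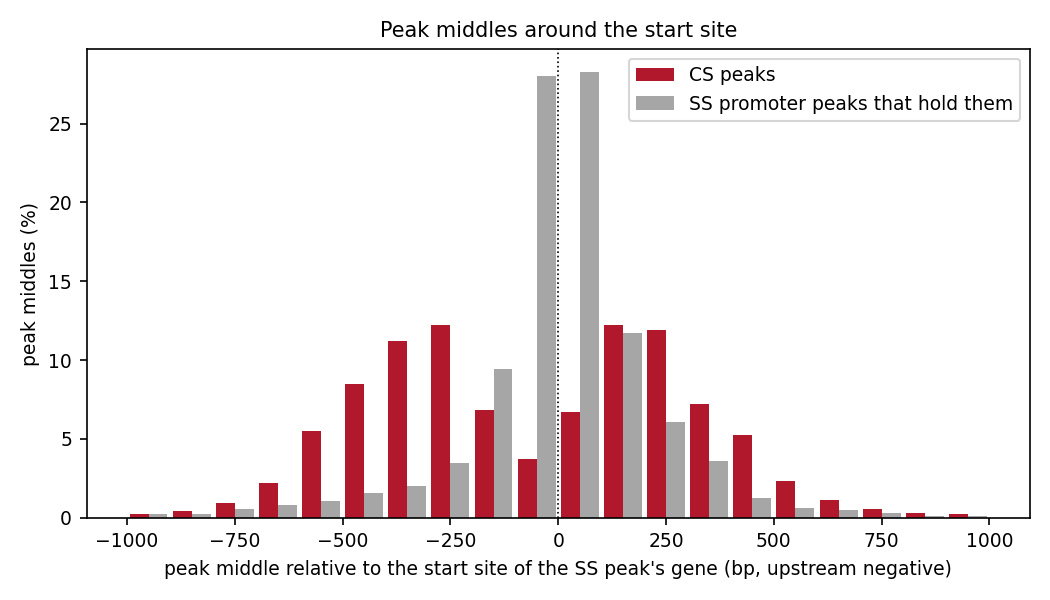
Middles of CS peaks (red) and of the SS promoter peaks that hold them (grey), in steps of 100 bp from the start site of the SS peak's gene, as percent of each set. CS middles form 1 mode on each side of the start site with 3.72% in the 100 bp before it, where SS middles stand at 28%. An SS middle is the centre of a wider peak, which need not be the place of its highest signal.

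The place of CS peaks changed with the width of the SS peak. Each SS promoter peak was divided into 3 equal parts along its width, oriented by the gene. In SS peaks below 600 bp the middle part held 58.8% of 272 CS peaks and in those of 600 to 800 bp it held 60% of 345. In SS peaks of 1000 bp and over it held 31.7% of 3605, the upstream part 42.3% and the downstream part 26%. The SS middle itself was covered by 46.7% of CS peaks in the narrowest class and by 7.96% in the widest. A CS peak takes up more of a narrow SS peak than of a wide one. Over all overlapped SS peaks, the median share under CS peaks was 22.5% below 600 bp and 10.7% at 1000 bp and over. Shares expected from the widths alone were not computed, so these contrasts between width classes include the effect of width itself. The lean to the upstream part differed between SS strength classes. In SS peaks of 1000 bp and over it held 29% of 31 CS peaks below fold 3.5, 37.5% of 741 at 3.5 to 5 and 36.9% of 1729 at 5 to 8. It held 53.8% of 859 at fold 8 to 11 and 56.3% of 245 at 11 and over. In SS peaks with exactly 1 CS peak the middle part of the widest class held 31.9%.

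**Figure D4:**
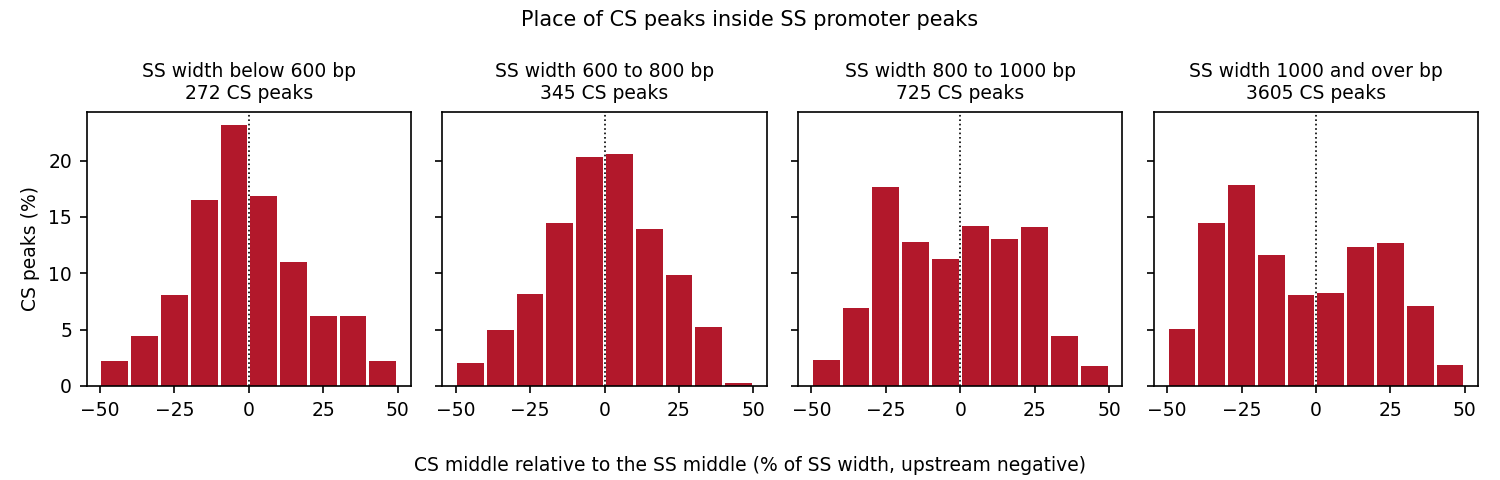
Place of the middle of each CS peak relative to the middle of its SS promoter peak (x axis, percent of the SS width, upstream negative) in 4 classes of SS width, as percent of CS peaks. In SS peaks below 800 bp CS peaks centre on the SS middle, and in those of 1000 bp and over they form 2 modes, the upstream one higher.

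A group of SS peaks held several CS peaks. Of 4166 SS promoter peaks with a CS peak, 621 (14.9%) held 2, 78 held 3 and 1 held more. Among overlapped SS promoter peaks, 3.03% of those below 600 bp and 20.3% of those of 1000 bp and over held at least 2. Of the 621 pairs 395 (63.6%) straddled the start site, 124 lay wholly upstream and 102 wholly downstream. Of the single CS peaks in these pairs 51.8% lay upstream, and the straddling share to be had from that alone was not computed. The middles of straddling pairs were a median of 523 bp apart (quartiles 398 and 689 bp), with median positions of -294 and 228 bp, counted from the start site with upstream negative. The 5 strongest wide SS peaks with 3 CS peaks were those of Cnih1, Ccdc58, Msh6, Usp40 and Gpatch3. In Usp40 the CS middles were at -506, -209 and 321 bp, and the capital run of its sequence belongs to the peak at -209 bp. In Gpatch3 they were at -410, -159 and 106 bp, and in Msh6 at -584, -296 and 190 bp. In Cnih1, the gene of a cargo receptor for export from the endoplasmic reticulum, they were at -366, -142 and 298 bp, and in Ccdc58 at -336, 194 and 558 bp. The CS peaks together covered a median of 12.7% of the SS peak that held them.

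The side of the start site is given here by gene group, with no test between groups. CS middles lay upstream in 68.2% of 192 peaks at RNA processing and translation genes, 65.3% of 225 at protein turnover and traffic genes and 64.6% of 79 at mitochondrial genes. They lay upstream in 52.9% of 17 at developmental factors, 52% of 198 at zinc finger genes named Zfp, 46.8% of 47 at neuronal genes and 42% of 119 at replication, repair and cell cycle genes. Over all SS promoter genes the share was 52%. Where another gene started within 1000 bp upstream on the opposite strand, 41% of 805 CS middles lay upstream of the start site, against 54.1% of 4014 without such a neighbour. Genes on a chromosome without RefSeq promoter windows were left out of both sets.

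Gene length and promoter sequence moved with the held share. CS held 25.8% of genes below 10 kb (matched 27.6%), 33.9% at 10 to 30 kb (29.9%), 32.1% at 30 to 100 kb (31.1%) and 25.3% at 100 kb and over (30.8%), by RefSeq length. Promoter windows could be matched to 6986 of the 13281 SS promoter genes (52.6%), by symbol, chromosome, strand and a start site within 100 bp. Those with a window were held at 32.8% and those without at 25.7%, so as a check over all SS promoter genes the promoter sequence is void, and values below describe the matched genes alone. Held shares were 37.6% (interval 33.1 to 42.3%) where the window had a GC share below 50%, 36.2% at 50 to 60%, 32.9% at 60 to 70% and 26.6% (24.4 to 28.9%) at 70% and over. The matched shares ran the other way, 30.6, 32.1, 33 and 33.8%.

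Bases under CS peaks were also less GC-rich than bases outside them, in classes of distance from the start site. Among bases inside SS promoter peaks from -250 to -151 bp, 52.4% were G or C under CS peaks, against 56.8% outside CS peaks in held genes and 59% in genes not held. From -150 to -51 bp the shares were 58.1% under CS peaks, 63.1% outside them in held genes and 65.5% in genes not held. Around the start site, from -50 to 49 bp, they were 64.9, 68 and 69.4% in the same order. The bases came from different sets of promoters. Those under CS peaks came from 665, 331 and 240 promoters, and those outside them in held genes from 1951, 2100 and 2174. The values therefore do not compare bases within the same windows, and place within each distance class was not matched. In the windows printed above, the held genes Usp40, Gpatch3, Msh6 and Rsrc1 had GC shares of 45, 56.3, 71.7 and 72.7%, against 63.7% in Nek9 and 65.7% in Taf10, which were not held. Of these held windows, 2 lay below and 2 above both of those not held. The part of GC share in which genes were held was not tested.

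**Figure D5:**
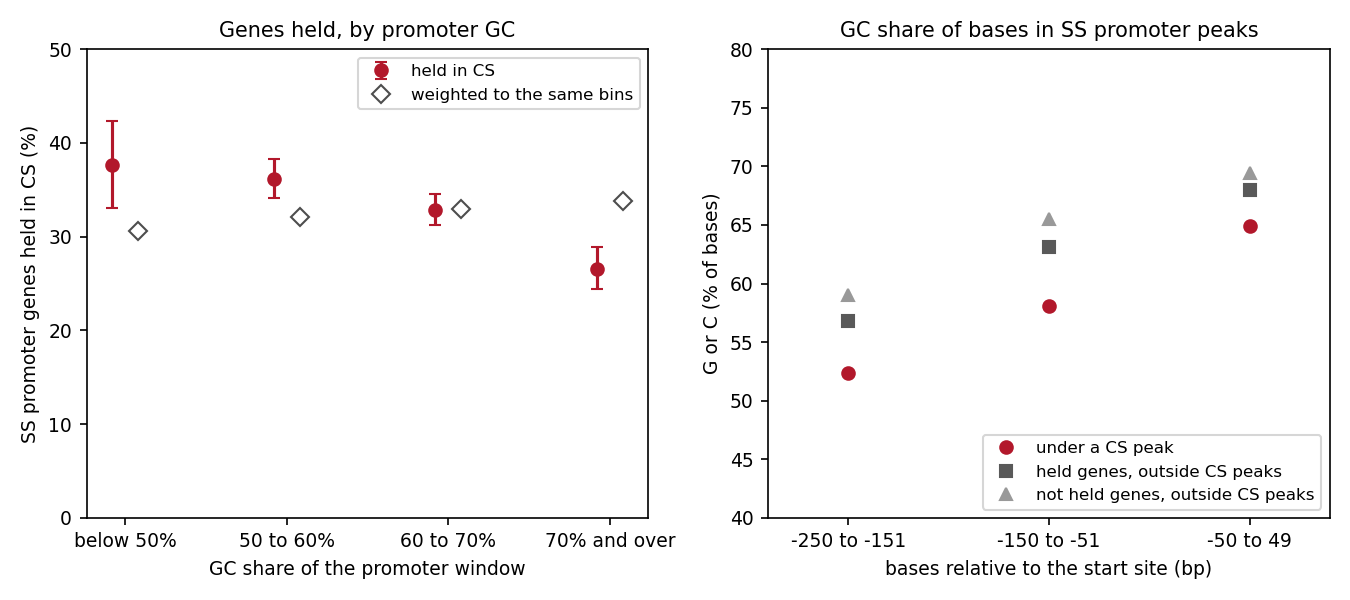
Left, share of SS promoter genes held in CS by GC share of the promoter window (red, 95% exact binomial intervals) and the matched share (open diamonds), in percent. Right, GC share of bases inside SS promoter peaks by distance from the start site, under CS peaks (red) and outside them in held (dark) and not held genes (light), lowest under CS peaks at all 3 distances.

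Short motifs were searched on both strands of the matched windows. The ETS-type word CCGGAAGT was in 599 windows (8.57%, and 3.95% of all 31396 RefSeq promoter windows). Genes with it were held at 44.4% (interval 40.4 to 48.5%), against 31.7% of those without, with matched shares of 36.2% and 32.5%. In 58 genes with at least 2 matches the share was 51.7% (38.2 to 65%), and with 1 or more it lay above the matched share in each of the 5 strength classes and each of the 4 GC classes. The interval included the matched share below fold 3.5 (3 of 23 genes held), at fold 8 to 11 and at 11 and over. It also did at GC shares of 60 to 70% and of 70% and over. Genes with the NRF1 word GCATGCGC, in 5.78% of the windows and 2.7% of all, were held at 39.1% (matched 34.2%). Those with the YY1 word AAGATGGC, in 4.55% and 2.75%, were held at 38.7% (interval 33.3 to 44.3%, which includes the matched 34.6%). The cAMP response word TGACGTCA stood in 3.59% and 1.83%, with 36.7% of its genes held (35.7%), and the AP-1 word TGANTCA in 3.99% and 7.84%, with 29.7% held (30.7%). For the words GGGCGG (SP/KLF), CCAAT (NFY), CACGTG (E-box), TATAAA, ACTACAATT (ZNF143) and CTATTTATA (MEF2) the held share was within 3.42 points of the matched one. A match is a run of letters and not a measured binding site.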

How the data were processed

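Annotated H2A.Z peak lists deposited by the authors, 1 for CS and 1 for SS, were analysed. Per the submitters' processing notes the build is mm10, and MACS2, SAMtools, HISAT and cutadapt were used. Not given in the sources used here were versions, settings, the control library and any pooling before calling. For each peak the authors deposited a fold enrichment, a ratio over background, and a linear q-value, per the file headers. A gene, a region class and a distance with sign stand beside them. On testing, that distance equalled the peak middle minus the TSS within 0.5 bp. Folds served to rank and bin SS peaks and were not compared between the lists. Starts and ends are as the lists give them.

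Members, gene lists and bins were chosen with earlier results of these data known. Overlaps, shares, bins, matched shares and positions were computed in Python 3.11.15 with pandas 2.3.3, numpy 2.4.6 and scipy 1.17.1, and the code was tested on simulated peaks. Genes named are the 3 strongest held and overlapped and the 3 strongest neither held nor overlapped in each SS fold class, up to 4 held and 4 not held members of each list by SS fold, the 5 wide SS peaks with the most CS peaks, the 5 strongest CS genes off SS peaks, and fixed genes of dopamine signalling, activity response and H2A.Z. Clone names, Gm and Rik names were skipped. A few genes that the rule would name are not reported here. A RefSeq length was found for 12284 SS promoter genes (92.5%). Alternatives changed the q threshold, the promoter window (500 and 2000 bp), the rule for held and for overlap, the list length, the chromosomes, the bins and, added after seeing the data, a division of the bins by gene length.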

Additional observations from a re-analysis of the deposited data

How the results depend on the processing

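With q at most 1e-05 in both lists, 4.45% of SS promoter genes were held, 3.37% of SS peaks were overlapped, 84.7% of CS peaks overlapped SS peaks and 52 CS promoter genes were not in SS. The difference between SS fold 5 to 8 and 8 to 11 was 4.24 points, and that between the widest and narrowest SS peaks at fold 3.5 to 5 was 3.44 points (27.5 as reported). Neuronal genes stood 2.97 points below their matched share (a difference of -2.97), with 3 of 343 held (44 of 344 as reported). These point differences rest on a held share of 4.45%, against 29.4% as reported, so their sizes cannot be compared with those reported. The middle part of wide SS peaks held 33.9% of CS peaks, and 8.45% of CS middles were within 100 bp of the start site (10.5% as reported). With the SS list cut to 6238 peaks, 29.9% of SS promoter genes were held (29.4% as reported), 29.7% of SS peaks were overlapped, 35.3% of CS peaks lay on one, 2604 CS promoter genes were not in SS, the strength difference was 3.86 points, neuronal genes stood at -18.5 points, the middle part held 25.8% and 9.27% of CS middles were within 100 bp of the start site. CS peaks with q at most 0.01 gave 26.4% held and 18.4% overlapped, a 500 bp window 27.6% held, overlap in place of gene name a width difference of 31.8 points, an overlap of 90% of the CS peak 19.9% and 90.6%, all chromosomes 92.3% of CS peaks on SS peaks, and 10 by 4 equal bins a strength difference of 9.44 points. The causes were not tested. No direction reversed among these results. Of the 41 lists, 13 lay below and 13 above their matched share in every setting that gave a value, and 12 changed side at q at most 1e-05. No paired analysis was possible because each condition has 1 list with no columns per sample, and for the same reason no sample could be left out. Without counts per sample, depth and its effect on the CS list were not analysed here.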
